A study of Homo sapiens with 30 samples.

Results

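ML-792 is a selective small-molecule inhibitor of the SUMO-activating enzyme, the E1 enzyme that starts the attachment of SUMO proteins to other proteins. The comparison described here is that of MDAMB231 cells, a breast cancer line, after 16 h in 500 nM ML-792 against the same line after 16 h in the vehicle, 0.01% DMSO. It has 3 libraries a side, 6 of the 30 in the series, and covers the genes that reached 1 FPKM in at least 3 of the 6 libraries. FPKM is fragments per kilobase of transcript scaled to library size, and 12145 of the 30373 genes in the file passed this limit.

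SUMO is a family of small proteins joined to lysines of other proteins by a cascade of enzymes. The E1 is a dimer of SAE1 and UBA2, E3 ligases help to choose the substrates, and SENP proteases take SUMO off again. Many substrates are nuclear, among them transcription factors, co-repressors, chromatin proteins and components of the PML nuclear body, and SUMO on a transcription factor is best known for lowering its activity. Inhibition of the E1 blocks new conjugation of every SUMO form at once.

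The series measured polyadenylated RNA of human cancer lines with a stranded kit and paired-end sequencing. The other 16 h groups were HCT116 and COLO205, both colorectal lines, each with 500 nM ML-792 or 0.01% DMSO and 3 libraries a group, and a 3.5 h set of HCT116 libraries is not used here. The labels call the libraries biological triplicates. They name no genetic change in these groups, and the 2 groups of MDAMB231 differ by the compound.

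The libraries carried the profile of the labelled line. VIM, a mesenchymal intermediate filament, averaged 885 FPKM with DMSO and 822 FPKM with ML-792, and AXL, a receptor kinase of mesenchymal-type breast lines, averaged 181 and 164 FPKM. ESR1 and PGR, the hormone receptors, were near 0 in both groups, and ERBB2 stood at 19.9 and 19.6 FPKM. Other luminal markers were high: the keratins KRT8, KRT18 and KRT19 averaged 430, 391 and 279 FPKM with DMSO. The 16 luminal and hormone receptor markers together summed to between 1224 and 1325 FPKM with DMSO and between 1133 and 1240 FPKM with ML-792. The colorectal markers CDX1 and CDX2, the erythroid gene HBB and the endothelial gene CDH5 were listed at 0 in all 6 libraries. CDX1 also averaged 0 in both 16 h groups of HCT116. The 14 colorectal markers together summed to between 0.794 and 0.940 FPKM in the DMSO libraries and between 1.80 and 2.60 FPKM in the ML-792 libraries, with 5 of the 14 at 0 throughout. Most of that sum was 1 gene, TFF3, at 0.617 to 0.837 FPKM with DMSO and 1.09 to 1.90 FPKM with ML-792. The 13 leukocyte, endothelial and erythroid markers summed to between 52.98 and 60.96 FPKM, with 4 of them at 0 throughout. Nearly all of that sum was 1 gene, CD68, at 49.7 to 58.7 FPKM, and the leukocyte gene PTPRC did not exceed 0.059 FPKM. The part of these markers in the results was not tested.

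The libraries were close in most measures of quality. Summed FPKM lay between 461422 and 482024. Between 12096 and 12116 genes reached 1 FPKM in the ML-792 libraries and between 12033 and 12052 in the DMSO libraries. Mitochondrial genes made up 17.57% to 18.17% of the sum with ML-792 and 16.87% to 17.41% with DMSO. Both measures thus lay slightly higher in every ML-792 library. The libraries' values per fragment, read from 2195 low genes, lay within 0.242 on the log2 scale, so the depths were close. ML-792 library 1 stood apart from its group: the median absolute log2 difference over genes was 0.0996 and 0.109 against libraries 2 and 3, compared with 0.0491 between libraries 2 and 3 and 0.0501 to 0.0656 among the DMSO libraries. Its deviations from the average library followed GC content, with a Spearman correlation across 11489 genes of 0.61, compared with -0.44 to 0.29 in the other 5 libraries. Genes are not independent replicates, and the correlation is a description. Counts for the gene lists are therefore given with and without this library. Genes that reach the limit of 1 FPKM only in 3 libraries that include it, such as SMAD6, were not tested in the fit without it. A gene that reaches the limit only in the libraries of 1 group can pass the test only as higher in that group.

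ML-792 moved many genes by small amounts and a few by large ones. Of the 12145 genes tested, 2156 (17.8%) passed an adjusted p of 0.05 in limma, 1069 of them higher (8.8% of all tested) and 1087 lower (8.95%). These shares are the background for the counts of every gene list below. The median absolute log2 difference of the called genes was 0.27, and 37 genes moved at least 2-fold on the log2(FPKM + 1) scale, 33 higher and 4 lower. That scale understates the fold of low genes. The 2 groups did not overlap for 4454 of the 12145 genes. Among the 2156 called genes this held for 2155, so groups that lie apart add little to a call. Without ML-792 library 1 the count was 3346, with 1447 higher and 1899 lower, and 2056 of the 2156 genes were again called with 0 of them reversed. In bulk RNA a smaller number of cells of one state and less RNA per cell cannot be told apart.

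**Figure D1:**
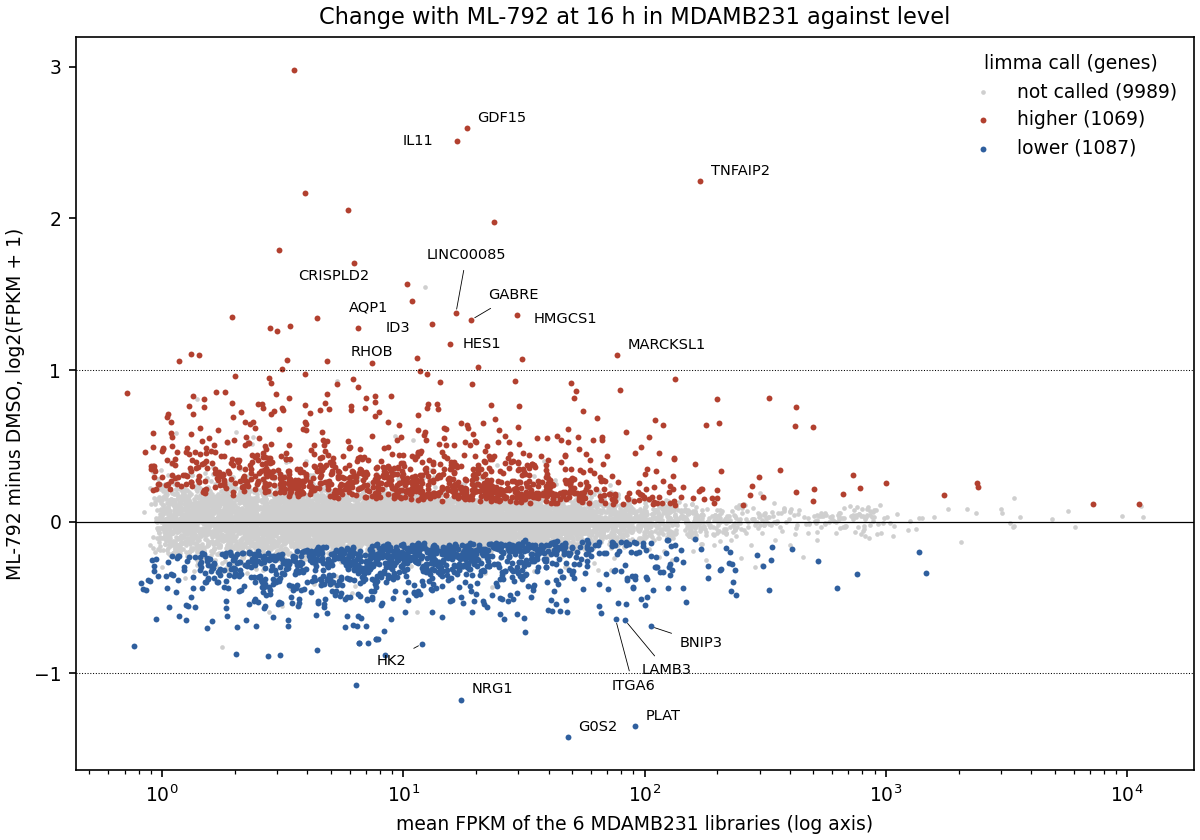
Difference between ML-792 and DMSO (y axis, log2 of FPKM + 1) against the mean FPKM of the 6 MDAMB231 libraries (x axis, log scale) for the 12145 tested genes, with called genes in colour and dotted lines at a 2-fold change. The 33 called points above the upper line and the 4 below the lower one show that the large changes were mostly rises, while the 2156 called genes divide almost evenly.

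The SUMO machinery itself was measured first, as the pathway the compound acts on. SAE1 and UBA2, the targeted enzyme, did not pass the test. SAE1 held 71.1, 69.4 and 71.7 FPKM in the DMSO libraries and 72.3, 67.9 and 70.6 FPKM in the ML-792 libraries. UBA2, its catalytic subunit, held 34.1, 33.8 and 31.5 FPKM with DMSO and 28.9, 32.0 and 32.8 FPKM with ML-792. The groups overlapped for both genes, with log2 differences of -0.01 ± 0.04 (SE) and -0.08 ± 0.06.

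SUMO3, one of the modifiers that form chains, held 102, 99.0 and 102 FPKM in the DMSO libraries and 121, 116 and 119 FPKM in the ML-792 libraries. Every ML-792 library lay above every DMSO library, and the rise was small (log2 difference 0.23 ± 0.03 (SE), adjusted p = 0.00207). SUMO2, its near-identical relative, rose by 0.18 on the log2 scale, from a mean of 256 to 289 FPKM (adjusted p = 0.0115). That call was lost when ML-792 library 2, DMSO library 2 or DMSO library 3 was left out, with adjusted p up to 0.0563.

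None of 11 SUMO E3 ligases and none of 12 SUMO proteases and SUMO-targeted ubiquitin ligases passed the test in limma, and at an unadjusted p under 0.05 the counts were 0 and 2, both of the latter lower. Without ML-792 library 1, 1 of the E3 ligases was higher and 1 lower, and again none of the proteases and ubiquitin ligases passed. Of 11 genes of the PML nuclear body, a nuclear structure built from SUMO-modified PML, 1 was higher and 3 were lower (36.4% called against 17.8% of all genes tested, and 2 and 3 without ML-792 library 1). BLM, among the lower ones, lost its call when ML-792 library 2, DMSO library 1 or DMSO library 2 was left out. The higher one was SP140, which went from 1.84 to 2.86 FPKM, and HIPK2, a kinase found at these bodies, fell from 10.3 to 7.96 FPKM. PML held 30.5, 30.0 and 31.4 FPKM in the DMSO libraries and 35.1, 30.5 and 30.9 FPKM in the ML-792 libraries, with overlapping groups. Among 18 genes of the H3K9 silencing machinery, the proteins that write, read and recruit a repressive histone mark, 1 was higher and 2 were lower (16.7% called, close to the background of 17.8%), and 2 and 5 without ML-792 library 1. ATF7IP, the partner of the methyltransferase SETDB1, was the higher one, at 12.2, 11.9 and 12.4 FPKM with DMSO and 16.0, 16.4 and 16.2 FPKM with ML-792 (log2 difference 0.38).

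The largest rises in genes of above-median level were those of 2 secreted factors and a TNF-inducible gene. GDF15, a stress-responsive member of the TGF-beta superfamily, held 4.17, 3.96 and 5.28 FPKM in the DMSO libraries and 37.2, 31.8 and 27.4 FPKM in the ML-792 libraries. IL11, a cytokine of the IL6 family, held 4.40, 4.26 and 4.18 FPKM with DMSO and 32.7, 29.8 and 25.1 FPKM with ML-792. TNFAIP2, named for its induction by tumour necrosis factor, held 57.4, 57.8 and 60.2 FPKM in the DMSO libraries and 295, 274 and 275 FPKM in the ML-792 libraries. The groups were far apart in all 3: the lowest ML-792 library was several times the highest DMSO library. The rule that picked these 3 genes as the largest rises also required groups that do not overlap. The log2 differences were 2.60 ± 0.12 for GDF15, 2.51 ± 0.08 for IL11 and 2.25 ± 0.04 for TNFAIP2, with adjusted p of 6.01e-06, 9.17e-07 and 3.4e-08.

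Other large rises in genes of this level covered several functions. CRISPLD2, a secreted glycoprotein, went from 4.74 ± 0.125 to 16.0 ± 0.682 FPKM (SD, n = 3). AQP1, a water channel, went from 5.34 ± 0.0613 to 16.4 ± 0.448 FPKM, and GABRE, a subunit of the GABA-A receptor, from 10.4 ± 0.266 to 27.8 ± 0.944 FPKM. MARCKSL1, an actin-binding protein, rose from 48.5 ± 1.28 to 105 ± 1.57 FPKM. RHOB, a small GTPase of endosomes, rose from 6.96 to 15.9 FPKM, and the noncoding gene LINC00085 from 8.74 to 24.3 FPKM. The rule that picked these 6 genes required groups that do not overlap.

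**Figure D2:**
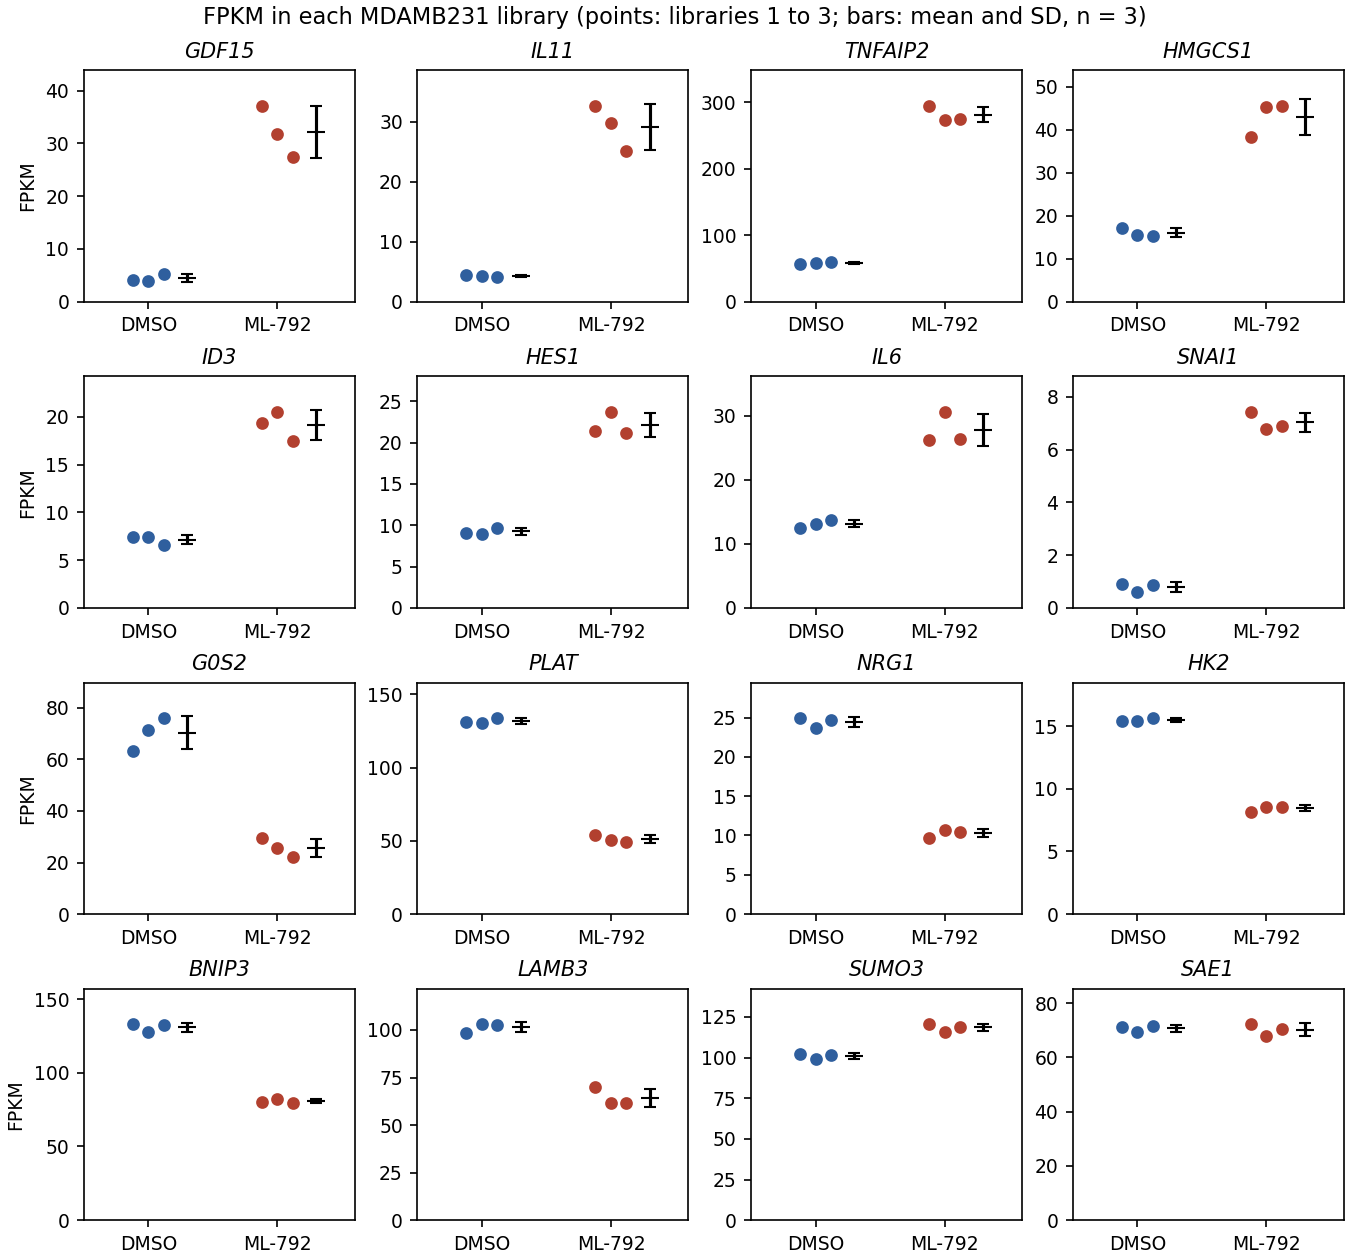
FPKM in each of the 6 MDAMB231 libraries (points, libraries 1 to 3 from left to right) for 16 genes, with the mean and SD of each group (n = 3) beside them and every y axis starting at 0. GDF15, IL11 and TNFAIP2 stand several-fold higher with ML-792, G0S2, PLAT and NRG1 fall to under their lowest DMSO value, SUMO3 shifts little and SAE1 overlaps.

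Most of the tested targets of TGF-beta and BMP signalling rose, and the ligands and receptors moved in both directions. Ligands of this family bind paired receptor kinases that phosphorylate SMAD proteins, and the SMADs then switch on targets that include their own inhibitors. Of 25 ligands, receptors and extracellular regulators, 3 were higher and 4 lower (4 and 4 without ML-792 library 1). Beside GDF15, TGFB3, a ligand, rose from 1.15 to 2.27 FPKM (log2 difference 0.61 ± 0.05 (SE), adjusted p = 0.000165). NOG, a secreted BMP antagonist, held 11.2, 12.7 and 13.5 FPKM with DMSO and 9.35, 8.64 and 7.28 FPKM with ML-792 and fell by 0.52 on the log2 scale. TGFBR2, the type II TGF-beta receptor, fell from 36.1 to 29.5 FPKM.

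Of 15 SMADs and co-repressors, 5 were higher and 1 was lower (the same without ML-792 library 1), with a median log2 difference of 0.12 against -0.01 over all genes tested. The higher ones were mostly feedback inhibitors. SMAD7, an inhibitory SMAD, held 3.88, 4.32 and 3.83 FPKM in the DMSO libraries and 6.06, 5.80 and 5.49 FPKM in the ML-792 libraries. SMAD6, the inhibitory SMAD of the BMP arm, rose from 0.812 to 1.49 FPKM. It reached the limit of 1 FPKM only in the ML-792 libraries, so it could pass only on the higher side. SKIL, a co-repressor that TGF-beta induces, rose from 2.60 to 4.11 FPKM, and PMEPA1, an inhibitor that sequesters SMADs, from 11.5 to 18.2 FPKM. For each of these 4 genes the lowest ML-792 library lay above the highest DMSO library.

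Of 24 TGF-beta and BMP targets, 14 were higher and 0 lower in limma (1 lower at an unadjusted p under 0.05), with a median log2 difference of 0.42. Without ML-792 library 1 the counts were 12 and 2. ID2 and SMAD6 reached the limit of 1 FPKM only in the ML-792 libraries, so they could pass only on the higher side. The list shares members with that of SMADs and co-repressors: SMAD6, SMAD7, SKIL and PMEPA1 were counted as higher in both. ID3, a repressor of basic helix-loop-helix factors and a classical BMP target, held 7.39, 7.42 and 6.59 FPKM in the DMSO libraries and 19.3, 20.5 and 17.4 FPKM in the ML-792 libraries, a log2 difference of 1.30 ± 0.07 (adjusted p = 8.06e-06). ID1 held 33.8, 35.0 and 41.0 FPKM with DMSO and 61.4, 53.3 and 46.5 FPKM with ML-792, with the ML-792 libraries above the DMSO libraries but more scattered, and ID2 rose from 0.535 to 1.31 FPKM. HES1, a repressor also known as a NOTCH target, held 9.06, 8.97 and 9.72 FPKM in the DMSO libraries and 21.4, 23.7 and 21.2 FPKM in the ML-792 libraries (log2 difference 1.17 ± 0.06 (SE), adjusted p = 5.78e-06). TSC22D1, a TGF-beta-stimulated gene, rose from 36.6 to 65.2 FPKM.

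Some targets linked to matrix also rose. TGFBI, a secreted matrix protein named for its induction by TGF-beta, went from 28.9 to 42.8 FPKM, and COL4A1, a basement membrane collagen, from 6.79 to 8.65 FPKM. Other matrix targets did not pass the test: the log2 differences were 0.11 for LTBP2, 0.05 for FN1, -0.006 for COL4A2, -0.006 for THBS1 and -0.11 for CTGF (unadjusted p = 0.0131 for CTGF). SNAI1, a repressor of epithelial genes that TGF-beta induces in many cells, was in no list and was picked after its values were seen: it held 0.911, 0.588 and 0.881 FPKM in the DMSO libraries and 7.44, 6.79 and 6.88 FPKM in the ML-792 libraries. SNAI1 reached the limit of 1 FPKM only in the ML-792 libraries, so it could pass only on the higher side. CDKN1A, 1 of the 10 targets that did not pass, held 36.1, 38.3 and 38.3 FPKM with DMSO and 36.9, 34.6 and 34.0 FPKM with ML-792, with overlapping groups.

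The promoters of these targets were searched for the BMP response element GGCGCC. The window was the RefSeq promoter of each gene, 250 bases before to 50 after the start, in GRCh38.p14, and both strands were searched. Where the table holds several starts of a gene, the first was used. The letters stood in 5 of the 11 higher targets with a promoter in the table (45.5%), in 3 of 9 not called (33.3%) and in 31.8% of 9444 promoters of tested genes (19.0% of all 27305 in the table). A match describes letters in a window and does not show a site in use.

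Most of the cytokines and chemokines tested rose. Of 20, 12 were higher and 2 lower, with a median log2 difference of 0.43, and 11 and 2 without ML-792 library 1. TNFSF15, among the higher ones, reached the limit of 1 FPKM only in the ML-792 libraries. It could therefore pass only on the higher side and was not tested without ML-792 library 1. IL6, a cytokine that MDAMB231 makes at rest, held 12.6, 13.1 and 13.7 FPKM in the DMSO libraries and 26.3, 30.7 and 26.4 FPKM in the ML-792 libraries (log2 difference 1.02 ± 0.06 (SE), adjusted p = 2.7e-05). CCL26, an eosinophil chemokine, held 1.71, 1.55 and 1.74 FPKM with DMSO and 9.69, 10.7 and 9.92 FPKM with ML-792. Both pairs of groups were fully apart.

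CXCL1, CXCL2 and IL8, chemokines that draw neutrophils, rose by 0.84, 0.77 and 0.49 on the log2 scale, and CXCL1 and CXCL2 are similar enough in sequence that counting could divide their fragments. CSF2, a myeloid growth factor, rose from 4.24 to 7.91 FPKM, and CSF1, the macrophage growth factor, from 98.5 to 124 FPKM. LIF, another cytokine of the IL6 family, went the other way, from 15.0, 15.4 and 15.1 FPKM to 11.5, 10.5 and 10.5 FPKM. Of 15 receptors and JAK-STAT genes of that family, 1 was higher and 1 lower (13.3% called, below the 17.8% of all genes tested, and 2 and 1 without ML-792 library 1): PIM1, a kinase induced by STAT factors, was the higher one.

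NF-kB is a transcription factor family known to drive many cytokine genes. Of 23 subunits and regulators, 5 were higher and 3 lower, with TNFAIP2 the largest, and 8 and 4 without ML-792 library 1. NFKBIA, the inhibitor that NF-kB induces, held 33.7, 35.6 and 39.1 FPKM in the DMSO libraries and 44.3, 44.2 and 41.3 FPKM in the ML-792 libraries. The ML-792 libraries were all higher, by 0.26 on the log2 scale (adjusted p = 0.0173). IKBKB, a kinase that releases NF-kB, fell from 18.2 to 14.2 FPKM.

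Under 1 in 2 of the interferon response genes rose, by small steps. Interferons signal through JAK kinases to transcription factors that switch on antiviral genes. Of 37 genes tested, 17 were higher and 1 lower, with a median log2 difference of 0.22, and 22 and 1 without ML-792 library 1. SAMD9L, an antiviral protein that stops translation, held 9.33, 8.83 and 8.70 FPKM in the DMSO libraries and 13.2, 14.5 and 14.9 FPKM in the ML-792 libraries (log2 difference 0.61 ± 0.06 (SE), adjusted p = 0.000185). IFIT2, which blocks viral RNA, rose by 0.43 on the log2 scale, to 24.8, 29.3 and 28.2 FPKM with ML-792. OAS3, which makes the activator of RNase L, was the member that fell, from 5.82, 5.80 and 5.95 FPKM to 4.47, 4.39 and 4.24 FPKM.

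ISG15, MX1 and IFIT1 did not pass the test. IRF1, a transcription factor of the same response, rose from 27.7 ± 0.466 to 33.4 ± 0.192 FPKM. Of 19 antigen presentation genes 7 were higher and 0 lower in limma (0 lower also at an unadjusted p under 0.05, and the same counts without ML-792 library 1). For this list 36.8% were called, against 17.8% of all genes tested. HLA-B held 307, 324 and 336 FPKM in the DMSO libraries and 431, 398 and 395 FPKM in the ML-792 libraries, and TAP1, a peptide transporter, went from 36.3 to 42.7 FPKM. HLA genes are alike and variable between people, so reads could be divided between them.

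The interferon element (GAAA, any 2 bases, GAAA, on either strand) stood in 6 of 13 higher interferon genes with a promoter in the table (46.2%), in the promoter of OAS3, which was lower, and in 10 of 14 not called (71.4%), compared with 2.84% of promoters of tested genes (3.65% of all). The element is shown in capitals for 2 higher genes and for OAS3, with the letters before the start on the gene's strand.
SAMD9 (chr7:93118076-93118145, minus strand): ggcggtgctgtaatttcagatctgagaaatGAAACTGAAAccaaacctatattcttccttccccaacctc
PARP14 (chr3:122680780-122680838, plus strand): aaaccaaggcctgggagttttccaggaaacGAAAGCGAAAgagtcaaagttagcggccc
OAS3 (chr12:112938301-112938370, plus strand): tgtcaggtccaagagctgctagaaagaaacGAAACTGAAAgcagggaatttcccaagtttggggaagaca
The share with the element was higher among the interferon genes that were not called than among those that rose. The list was assembled from genes known to respond to interferon, so the shares are a description of these promoters.

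More than 1 in 2 of the cholesterol synthesis enzymes rose. The pathway runs from acetyl-CoA through mevalonate and squalene to cholesterol, and its genes are switched on by SREBF2 when sterols are low. Of 22 enzymes, 12 were higher and 1 lower, with a median log2 difference of 0.20, and 12 and 2 without ML-792 library 1. HMGCS1, which makes HMG-CoA at the entry of the pathway, held 17.2, 15.6 and 15.4 FPKM in the DMSO libraries and 38.2, 45.3 and 45.6 FPKM in the ML-792 libraries (log2 difference 1.37 ± 0.07 (SE), adjusted p = 1.1e-05). MSMO1 and CYP51A1, enzymes that demethylate sterols, rose by 0.68 and 0.44 on the log2 scale. SQLE, the squalene epoxidase, rose by 0.30. LBR, a sterol reductase that is also a lamin receptor, was the member that fell, from 44.3, 42.8 and 40.2 FPKM to 35.3, 37.7 and 37.8 FPKM.

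Of 17 SREBP regulators and cholesterol uptake genes, 5 were higher and 1 lower (5 and 2 without ML-792 library 1). INSIG1, which holds SREBP in the endoplasmic reticulum when sterols are high, held 68.4, 66.1 and 65.9 FPKM in the DMSO libraries and 94.0, 106 and 104 FPKM in the ML-792 libraries, with a log2 difference of 0.59 ± 0.05. SREBF2 itself rose by 0.21, from 31.4 to 36.5 FPKM (adjusted p = 0.0258). Of 17 genes of fatty acid synthesis and desaturation, 4 were higher and 0 lower in limma (2 lower at an unadjusted p under 0.05), and 6 and 1 without ML-792 library 1. The share called was 23.5%, against 17.8% of all genes tested. Of these calls, SCD was lost under 8 of 15 alternative ways of processing and FADS1 under 3. FASN, the fatty acid synthase, rose from 89.5 to 112 FPKM. The letters TCACNCCAC of a sterol response element stood in none of 9 higher cholesterol enzymes with a promoter in the table and in 1 of 4 higher regulators, compared with 1.12% of promoters of tested genes (1.15% of all). That promoter was the one of SREBF2, shown with the element in capitals.
SREBF2 (chr22:41832942-41833010, plus strand): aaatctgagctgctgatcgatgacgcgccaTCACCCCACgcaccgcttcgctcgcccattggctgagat
SREBF2 had the smallest of the 5 rises of its list, and the larger movers INSIG1 and HMGCS1 hold no such letters in this window.

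Lipid storage and burning genes moved in both directions. Of 15 lipid droplet and PPAR target genes, 6 were higher and 2 lower, with the same counts without ML-792 library 1. G0S2, an inhibitor of the fat-splitting lipase ATGL, had the largest fall on the log2 scale among all called genes and held 63.4, 71.6 and 76.2 FPKM in the DMSO libraries and 29.4, 25.7 and 22.3 FPKM in the ML-792 libraries (log2 difference -1.42 ± 0.10 (SE), adjusted p = 5.41e-05). ANGPTL4, a secreted inhibitor of lipoprotein lipase, held 3.29, 3.47 and 3.43 FPKM with DMSO and 7.93, 7.51 and 6.40 FPKM with ML-792. PDK4, a kinase that turns off pyruvate dehydrogenase, rose from 1.04 to 2.97 FPKM, and CPT1A, the gate of fatty acid entry into mitochondria, from 12.4 to 17.1 FPKM. PLIN2, a lipid droplet coat protein, rose by 0.31 on the log2 scale.

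Most of the hypoxia response genes tested fell. Hypoxia-inducible factors are stabilised when oxygen is low and bind a short core sequence near genes for glycolysis, vessel growth and mitophagy. Of 32 genes of the response, 19 were lower and 2 higher, with a median log2 difference of -0.25, and 21 and 4 without ML-792 library 1. BNIP3, a mitophagy receptor, held 133, 127 and 132 FPKM in the DMSO libraries and 80.2, 82.5 and 79.7 FPKM in the ML-792 libraries (log2 difference -0.69 ± 0.03 (SE), adjusted p = 6.79e-06). CA9, a carbonic anhydrase used as a hypoxia marker, held 4.49, 4.04 and 4.50 FPKM with DMSO and 2.33, 2.14 and 2.48 FPKM with ML-792. PDK1, a kinase that diverts pyruvate from mitochondria, held 7.78, 6.83 and 7.45 FPKM in the DMSO libraries and 3.65, 4.35 and 4.53 FPKM in the ML-792 libraries.

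The transcript of HIF1A, the oxygen-regulated subunit, itself fell, from 106, 101 and 102 FPKM to 70.2, 78.0 and 79.2 FPKM. EPAS1, which encodes HIF-2 alpha, was 1 of the 2 higher members and went from 11.3 to 14.1 FPKM (log2 difference 0.30 ± 0.05 (SE), adjusted p = 0.00283), and ANGPTL4 was the other. EGLN1, an oxygen sensor, fell by 0.38 and LOX, a collagen cross-linker, by 0.45. DDIT4 fell by 0.33, a call lost in the fit on all 18 libraries (adjusted p = 0.0547).

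Most of the glycolysis genes fell, and the list shares members with that of hypoxia. Of 22 genes, 13 were lower and 1 higher, with a median of -0.25, and 17 and 1 without ML-792 library 1. HK2, the inducible hexokinase at the first step, held 15.5, 15.4 and 15.7 FPKM in the DMSO libraries and 8.18, 8.59 and 8.58 FPKM in the ML-792 libraries (log2 difference -0.80 ± 0.04 (SE), adjusted p = 7.92e-06). LDHA, which turns pyruvate into lactate and is one of the most abundant messages here, held 880.1, 835 and 837 FPKM with DMSO and 662, 669 and 679 FPKM with ML-792. ENO2 fell from 55.8 to 38.8 FPKM and PGK1 from 340.1 to 277 FPKM. In each of the 4 genes every ML-792 library lay below every DMSO library. PFKM, the muscle form of phosphofructokinase, was the higher member, at 18.5 and 22.1 FPKM, while PFKP and PFKL, the platelet and liver forms, fell by 0.45 and 0.33.

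The hypoxia response element core ACGTGC stood in 7 of 15 lower hypoxia genes with a promoter in the table (46.7%) and in 4 of 13 lower glycolysis genes (30.8%). It stood in 1 of 10 hypoxia genes and 1 of 7 glycolysis genes that were not called, in 9.06% of promoters of tested genes and in 6.87% of all. Of the higher members, 0 of 2 hypoxia genes and 0 of 1 glycolysis genes held it. The lists were assembled in part from genes known to respond to hypoxia-inducible factors, so the shares are a description of these promoters. The stretches below show the core in capitals for genes from both lists, as they lie before the start on the gene's strand. GCACGT is the same core read on the other strand. The core overlaps the E-box CACGTG in part, and in BNIP3 copies on both strands overlap.
CA9 (chr9:35673879-35673927, plus strand): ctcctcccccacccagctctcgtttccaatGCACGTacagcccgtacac
BNIP3 (chr10:131982023-131982088, minus strand): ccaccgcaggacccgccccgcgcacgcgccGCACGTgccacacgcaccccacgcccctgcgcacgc
EGLN1 (chr1:231422288-231422330, minus strand): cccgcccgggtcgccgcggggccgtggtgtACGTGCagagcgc
HK2 (chr2:74834048-74834113, plus strand): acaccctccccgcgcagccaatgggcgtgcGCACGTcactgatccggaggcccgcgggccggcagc
ENO2 (chr12:6914432-6914497, plus strand): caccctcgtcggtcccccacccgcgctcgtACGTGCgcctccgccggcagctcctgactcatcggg
LDHA (chr11:18394459-18394524, plus strand): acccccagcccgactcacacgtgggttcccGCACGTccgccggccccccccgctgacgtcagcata
The core began between 13 and 135 bases before the start in the 6 stretches, which were picked. It lies farther away in other lower genes, at 242 bases in KDM4B, 184 bases in PGK1 and 161 and 143 bases in ANKRD37, and LDHA holds a second copy at 186 bases.

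Under 1 in 2 of the DNA replication and S phase genes fell, by small amounts. The set holds the MCM helicase, the GINS complex, clamp loaders, polymerases and the E2F factors that switch them on. Of 44 genes, 20 were lower and 0 higher in limma (1 higher at an unadjusted p under 0.05), with a median of -0.17, and 29 and 0 without ML-792 library 1. MCM5, a helicase subunit, held 38.3, 40.1 and 40.9 FPKM in the DMSO libraries and 31.6, 28.4 and 27.7 FPKM in the ML-792 libraries (log2 difference -0.43 ± 0.05 (SE), adjusted p = 0.000977). MCM6, another subunit, held 29.6, 29.9 and 28.9 FPKM with DMSO and 22.8, 22.8 and 21.9 FPKM with ML-792. UHRF1, which couples replication to DNA methylation, held 48.3, 48.9 and 49.4 FPKM in the DMSO libraries and 39.5, 36.0 and 36.4 FPKM in the ML-792 libraries.

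E2F1 fell from 32.8 to 27.3 FPKM (adjusted p = 0.0303) and E2F2 from 1.90 to 1.39 FPKM. For E2F1, ML-792 library 1 lay at 30.8 FPKM, near the DMSO libraries, while the other two lay at 25.7 and 25.5 FPKM. Of 36 G2 and mitosis genes, 2 were higher and 4 lower, a share close to the background, 3 and 9 without ML-792 library 1, and 3 and 18 once a trend on GC content and length was removed. CENPA, the centromeric histone, was higher, at 17.6 and 21.7 FPKM, and TOP2A was lower, at 108 and 95.1 FPKM. CDKN3, a phosphatase that acts on CDK2, held 54.2, 54.6 and 57.7 FPKM in the DMSO libraries and 97.7, 106 and 103 FPKM in the ML-792 libraries, the largest change among 18 CDK inhibitors and checkpoint genes, of which 4 were higher and 2 lower (4 and 3 without ML-792 library 1). CCND1, cyclin D1, fell by 0.30.

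The E2F motif, TTTGGCGC or TTTCCCGC on either strand, stood in 11 of 16 lower S phase genes with a promoter in the table (68.8%) and in 7 of 22 not called (31.8%), compared with 3.86% of promoters of tested genes and 2.31% of all. MCM6 carries it in 2 places, and E2F1 carries it in its own promoter. The motif is in capitals.
MCM6 (chr2:135876558-135876625, minus strand): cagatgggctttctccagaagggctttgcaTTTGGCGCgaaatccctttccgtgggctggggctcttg
MCM6 (chr2:135876496-135876563, minus strand): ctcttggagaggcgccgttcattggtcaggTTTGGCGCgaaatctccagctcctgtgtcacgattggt
E2F1 (chr20:33686386-33686435, minus strand): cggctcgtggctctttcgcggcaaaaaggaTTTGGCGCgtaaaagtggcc
MCM3 (chr6:52284879-52284946, minus strand): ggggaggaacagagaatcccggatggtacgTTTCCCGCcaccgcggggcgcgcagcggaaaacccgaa
UHRF1 (chr19:4909457-4909500, plus strand): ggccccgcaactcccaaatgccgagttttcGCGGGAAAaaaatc
In UHRF1 the motif lies on the other strand. The list was assembled from genes known to be under E2F control in part, so the share is a description of these promoters.

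**Figure D3:**
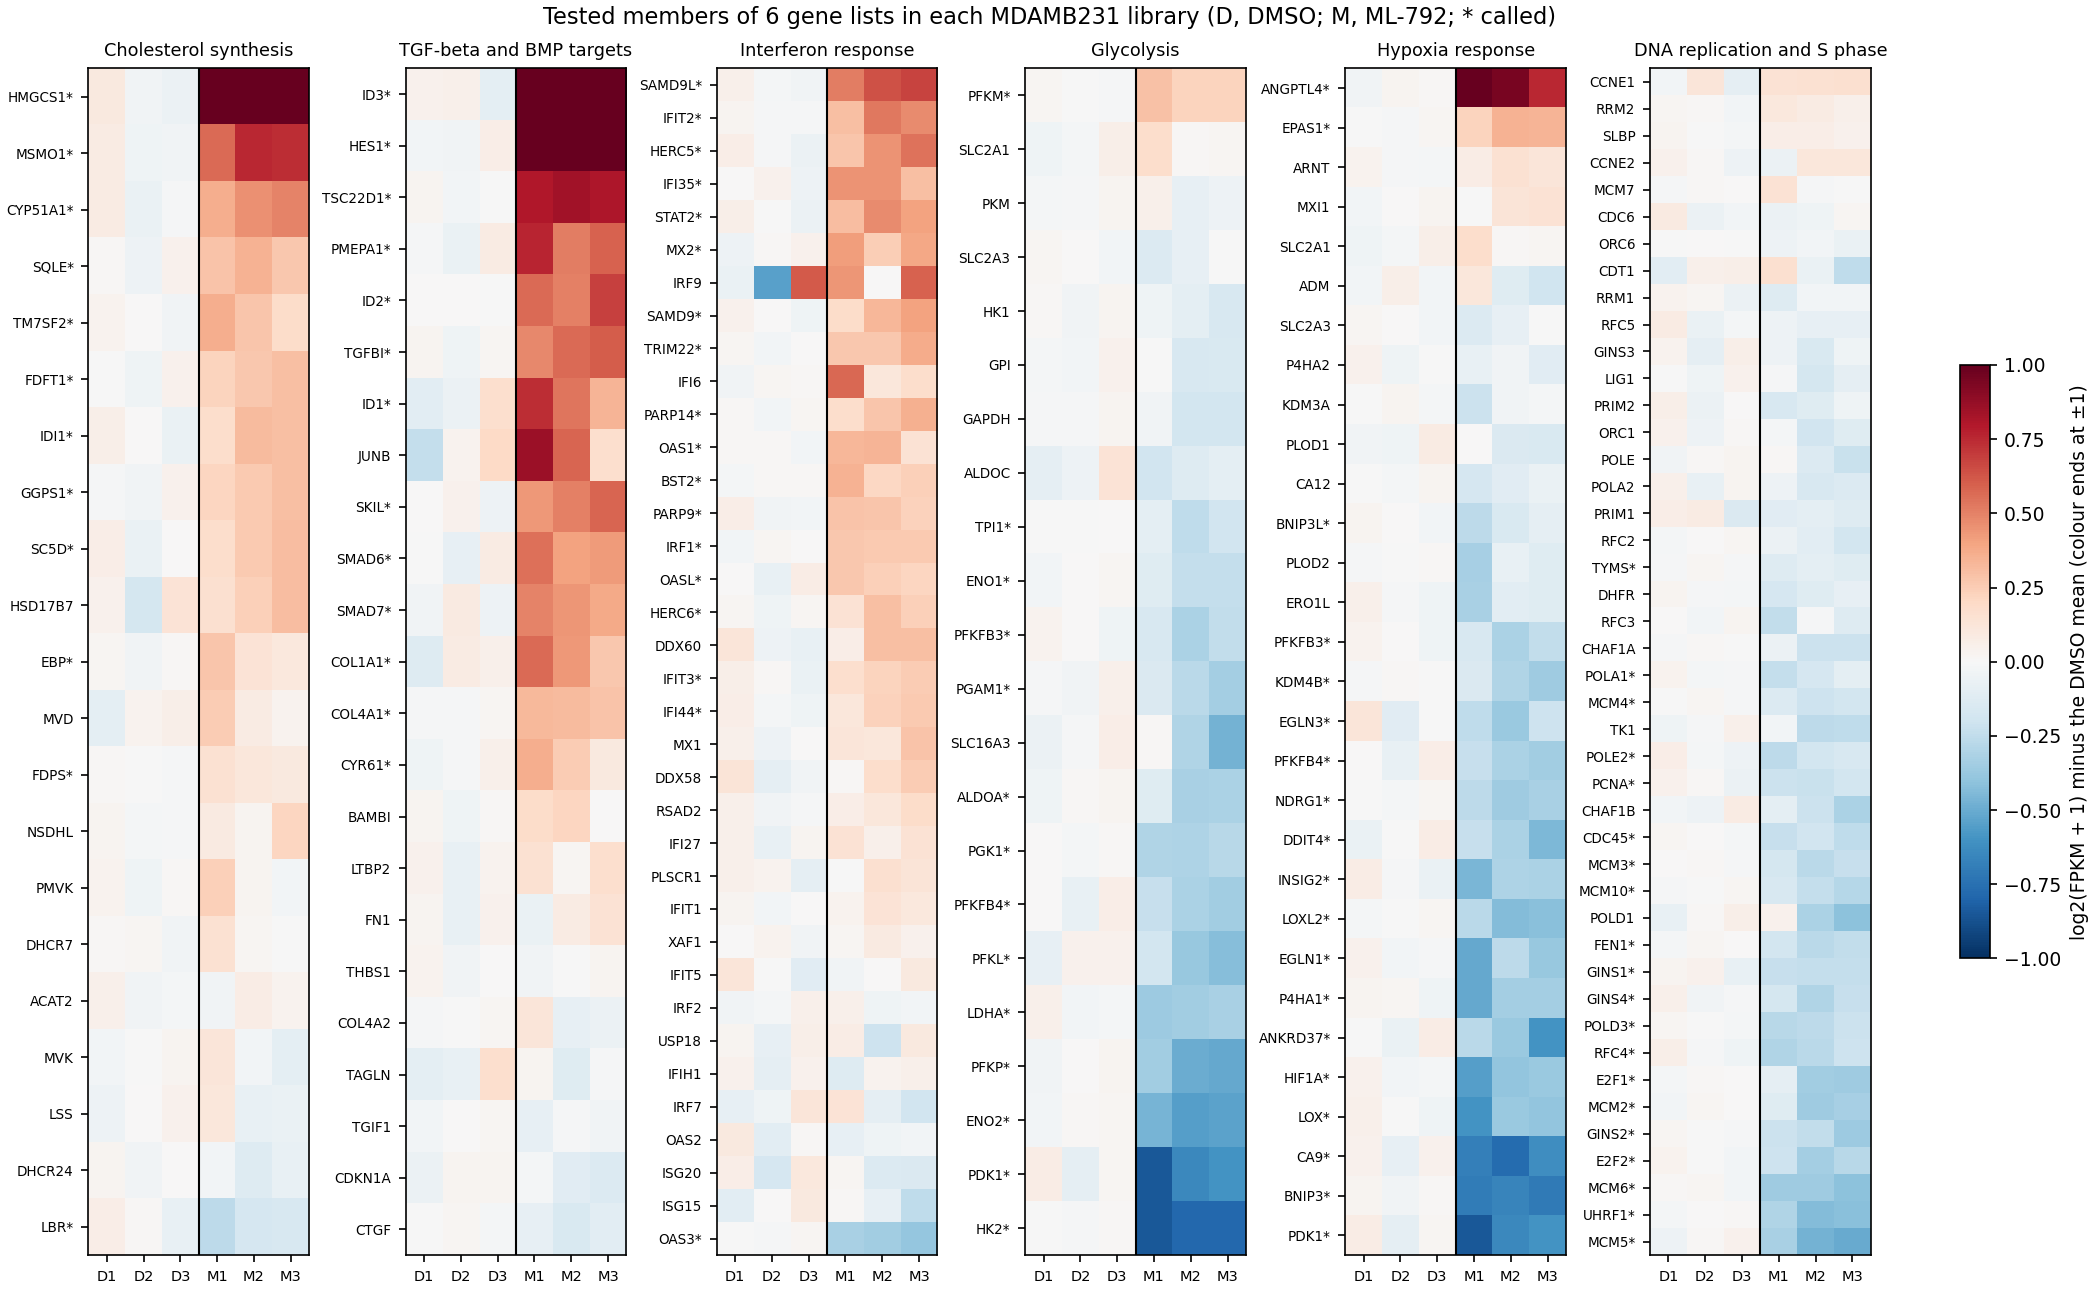
Difference of log2(FPKM + 1) from the DMSO mean (colour, ending at 1 either way) for tested members (rows; a few are not shown) of 6 gene lists in the 3 DMSO and 3 ML-792 libraries (columns). Members of cholesterol synthesis, TGF-beta and BMP targets and interferon response are mostly red in the ML-792 columns, those of glycolysis, hypoxia and DNA replication mostly blue, and an asterisk marks each called gene.

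Most of the polyadenylated histone genes rose, and zinc finger genes moved in a small share. Of 10 histone genes with a polyadenylated form, 7 were higher and 1 lower, with a median of 0.46, and the same counts held without ML-792 library 1. HIST1H2BK held 91.2, 95.7 and 93.9 FPKM in the DMSO libraries and 150.2, 145 and 143 FPKM in the ML-792 libraries, and HIST1H2BD held 12.8, 13.7 and 12.8 FPKM with DMSO and 26.9, 26.4 and 23.0 FPKM with ML-792. HIST1H2AC rose from 9.07 to 16.2 FPKM and the linker histone HIST1H1C from 37.9 to 58.5 FPKM. Histone genes are near copies of each other, so the division of reads between them is uncertain. H1F0, a linker histone of resting cells, was the lower member.

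Of 400 tested genes with ZNF names, the usual prefix of zinc finger proteins, 52 were higher and 8 lower, 15.0% called against 17.8% of all genes, with a median log2 difference of 0.07. Without ML-792 library 1 the counts were 77 and 16. ZNF841 held 7.595, 7.66 and 7.33 FPKM in the DMSO libraries and 15.2, 16.2 and 16.5 FPKM in the ML-792 libraries (log2 difference 0.99 ± 0.05 (SE), adjusted p = 5.64e-06). ZNF432 and ZNF45, which are other members of the family, rose by 0.74 and 0.70. ZNF175 went the other way, at 11.3, 10.03 and 10.4 FPKM with DMSO and 6.06, 6.13 and 5.89 FPKM with ML-792. The share called was below the background, while the calls lay mostly on the higher side. Members of this family share sequence, so reads of some could be misplaced.

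Genes of adhesion and the pericellular proteases moved in both directions. PLAT, tissue plasminogen activator, held 131, 130.3 and 134 FPKM in the DMSO libraries and 54.3, 50.2 and 49.0 FPKM in the ML-792 libraries, and PLAU, urokinase, held 177, 172 and 179.8 FPKM with DMSO and 127, 119 and 119 FPKM with ML-792. The log2 differences were -1.35 ± 0.04 and -0.53 ± 0.04. Of 19 genes of the plasminogen system and matrix proteases, 3 were higher and 7 lower (4 and 8 without ML-792 library 1). TIMP3, a metalloproteinase inhibitor bound to matrix, fell from 114 to 79.6 FPKM.

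Of 12 integrin subunits, 6 were lower and 1 was higher (58.3% called against 17.8% of all genes tested, and 6 and 2 without ML-792 library 1), with a median of -0.20. ITGA6 and ITGB4 pair as the laminin receptor of hemidesmosomes. ITGA6 held 94.9, 93.1 and 90.0 FPKM in the DMSO libraries and 54.7, 59.7 and 62.7 FPKM in the ML-792 libraries and ITGB4 held 76.9, 80.4 and 82.2 FPKM with DMSO and 57.7, 49.4 and 50.2 FPKM with ML-792, apart in both cases. LAMB3, a chain of laminin-332, their ligand, held 98.5, 103 and 103 FPKM in the DMSO libraries and 69.9, 61.5 and 61.8 FPKM in the ML-792 libraries (log2 difference -0.65 ± 0.05 (SE), adjusted p = 0.000102). Of 21 collagens and matrix glycoproteins, 6 were higher and 6 lower (7 and 7 without ML-792 library 1). COL7A1, the anchoring fibril collagen, rose from 16.9 to 29.6 FPKM, and COL13A1, a transmembrane collagen, fell from 49.8 to 32.9 FPKM.

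Markers of the basal and mesenchymal type were either lower or not called. Of 13 tested basal and mesenchymal markers, 0 were higher and 6 lower in limma (0 higher also at an unadjusted p under 0.05), with a median of -0.18, and 0 and 9 without ML-792 library 1. CD44, a hyaluronan receptor, held 141, 137 and 141 FPKM in the DMSO libraries and 114, 113 and 113 FPKM in the ML-792 libraries. CAV1, the caveolar coat protein, fell from 378 to 277 FPKM, a call lost in the fit on all 18 libraries (adjusted p = 0.0606). VIM held 864, 858 and 931 FPKM with DMSO and 901, 796 and 769 FPKM with ML-792, with overlapping groups. Of 12 luminal markers 3 were higher and 5 lower (3 and 6 without ML-792 library 1), KRT19, a keratin, among the lower ones at 279 and 199.6 FPKM.

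Growth factors of the EGFR family moved in opposite directions. NRG1, the ligand of ERBB3 and ERBB4, held 25.0, 23.7 and 24.7 FPKM in the DMSO libraries and 9.71, 10.7 and 10.4 FPKM in the ML-792 libraries (log2 difference -1.17 ± 0.05 (SE), adjusted p = 2.79e-06). EREG and AREG, ligands of EGFR, rose, EREG from 5.22 to 10.03 FPKM and AREG from 41.7 to 69.9 FPKM. The call of AREG was lost in the fit on all 18 libraries (adjusted p = 0.166). ERRFI1, an inhibitor of EGFR, held 122, 119 and 119 FPKM with DMSO and 77.6, 83.2 and 84.3 FPKM with ML-792. Of 24 genes of this family and of MAPK feedback, 8 were higher and 6 lower (9 and 6 without ML-792 library 1).

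Of 26 AP-1 and immediate early genes, 11 were higher and 4 lower, and 9 and 6 without ML-792 library 1. NR4A1, among the higher ones, reached the limit of 1 FPKM only in the ML-792 libraries. It could therefore pass only on the higher side and was not tested without ML-792 library 1. NR4A2, a nuclear receptor induced by many stimuli, held 1.96, 1.99 and 2.20 FPKM in the DMSO libraries and 5.98, 7.65 and 6.64 FPKM in the ML-792 libraries (log2 difference 1.34 ± 0.08 (SE), adjusted p = 1.82e-05). FOSL2, an AP-1 subunit, fell from 47.7 to 31.6 FPKM. JUNB, another subunit, held 7.21, 8.91 and 10.1 FPKM with DMSO and 16.5, 13.5 and 9.88 FPKM with ML-792, a scatter that left it short of the threshold (adjusted p = 0.0736). Among 16 YAP and TEAD targets 4 were higher and 4 lower, and 5 and 8 without ML-792 library 1.

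Lists of stress pathways had between 20% and 34.8% of their members called, against 17.8% of all genes tested. Of 23 NRF2 targets, 7 were higher and 0 lower in limma (2 lower at an unadjusted p under 0.05), and 8 and 0 without ML-792 library 1, led by AKR1C3, a steroid reductase, at 87.8, 83.8 and 84.4 FPKM with DMSO and 136, 136 and 136 FPKM with ML-792. The AKR1C genes are close copies, so their reads may be shared. ABCC3, a drug exporter, rose from 31.6 to 46.9 FPKM. Of 23 heat shock chaperones and co-chaperones, 7 were higher and 1 lower (7 and 3 without ML-792 library 1): SERPINH1, the collagen chaperone, rose by 0.38 and BAG3 by 0.34.

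Of 23 p53 targets 7 were higher and 1 lower, and 7 and 4 without ML-792 library 1. PMAIP1, a pro-death BH3 protein, rose from 51.0 to 67.9 FPKM, while MDM2 held 7.46, 6.76 and 7.34 FPKM with DMSO and 7.06, 7.56 and 7.49 FPKM with ML-792, with overlapping groups. Of 26 genes of the ATF4 and amino acid response 5 were higher and 3 lower (6 and 5 without ML-792 library 1). Of 20 genes of the unfolded protein response 3 were higher and 1 lower (20% called, and 4 and 2 without ML-792 library 1). Of 24 ribosome biogenesis genes 0 were higher and 2 lower in limma (3 higher at an unadjusted p under 0.05), 8.33% called, and 2 and 7 without ML-792 library 1.

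**Figure D4:**
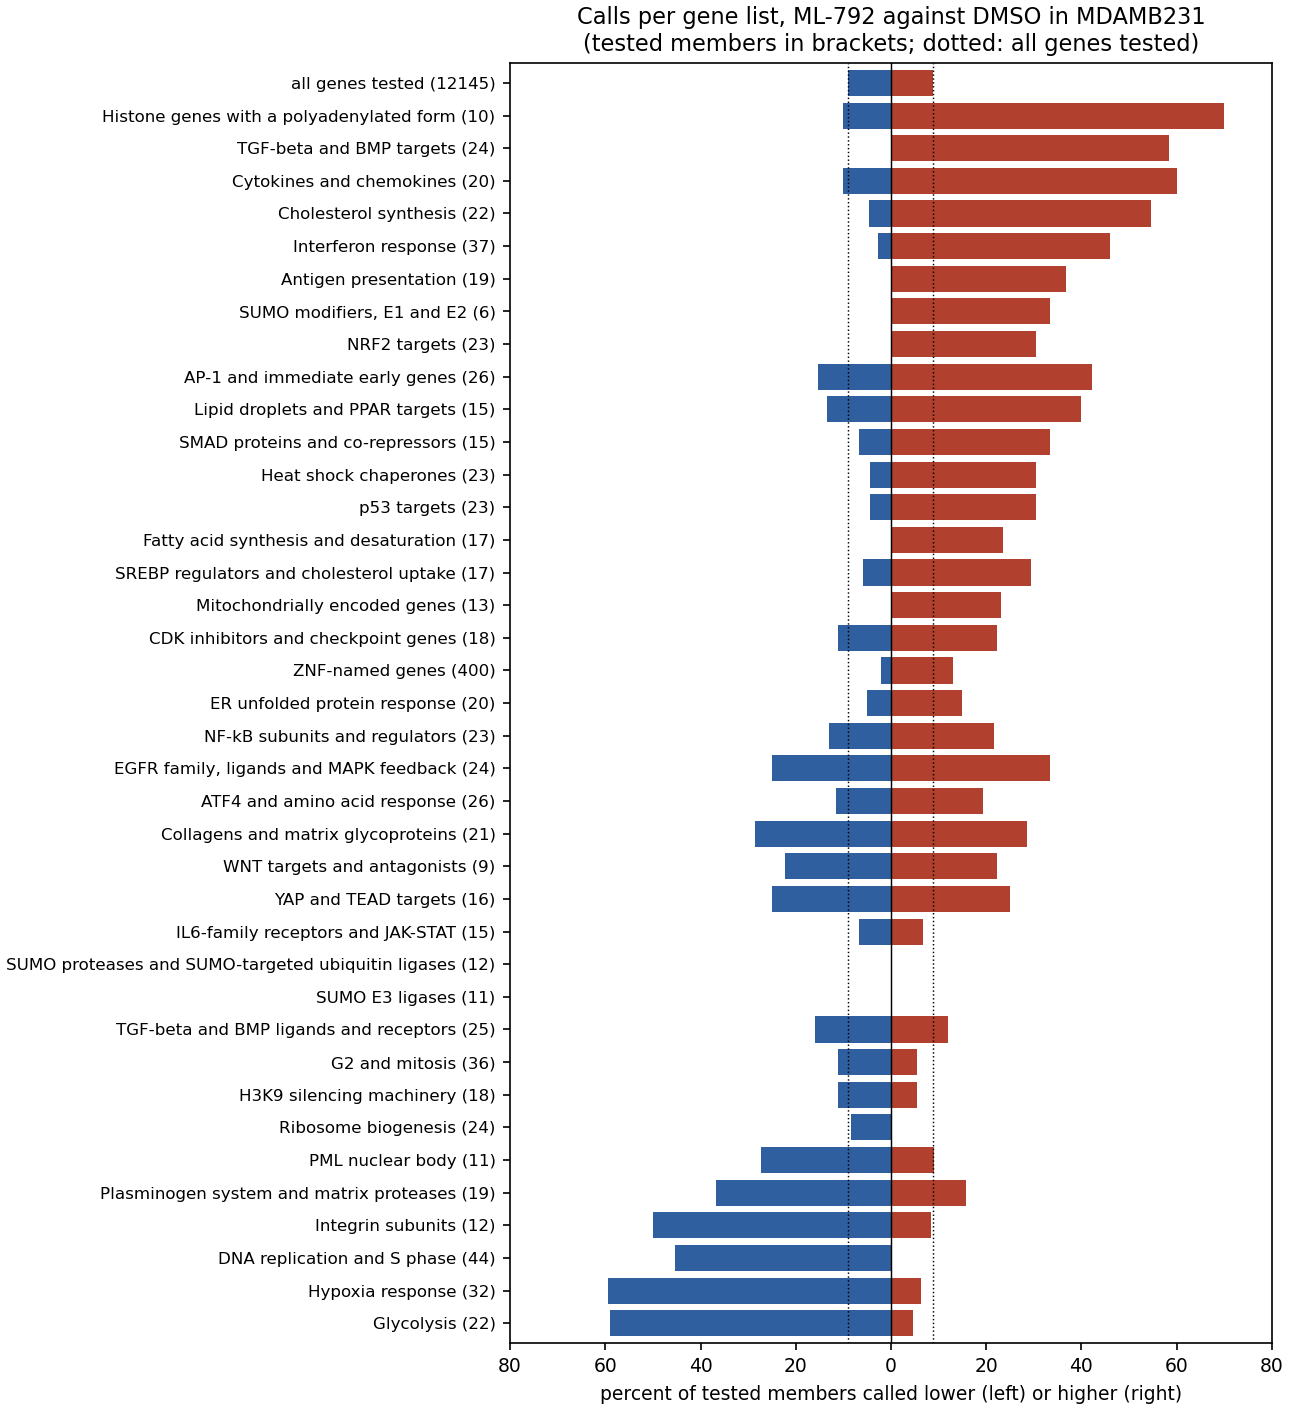
Percent of the tested members of each gene list called lower (bars to the left) or higher (bars to the right) with ML-792, with the number tested in brackets and dotted lines at the share of all 12145 tested genes. Histone genes, TGF-beta and BMP targets, cytokines and cholesterol synthesis lie farthest to the right, and hypoxia response, glycolysis and integrin subunits farthest to the left.

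The change in MDAMB231 was then set against the mean change in the 2 colorectal lines, HCT116 and COLO205. The test was an interaction in limma over the 18 libraries of 16 h, for the 10265 genes at 1 FPKM or more in 3 of the 6 libraries of each line. The change differed for 1702 genes (16.6%), 681 with a higher value in MDAMB231 and 1021 with a lower one, and 25 differed by at least 2-fold. For 467 genes both pairwise differences passed on the same side, 174 higher and 293 lower. IL11, PLAT, NRG1, G0S2 and BNIP3 stayed under that limit in a colorectal line and did not enter this test.

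GDF15 changed by 2.60 in MDAMB231, 0.71 in HCT116 and -0.31 in COLO205, a difference of 2.40 ± 0.32 (adjusted p = 0.000277). TNFAIP2 changed by 2.25, 0.30 and -0.03 in the same order, a difference of 2.11 ± 0.07 (adjusted p = 2.33e-13). ID3 and ID1 rose in MDAMB231 and had negative values in the colorectal lines: 1.30, -0.57 and -0.19 for ID3, and 0.54, -0.78 and -0.34 for ID1. Their differences of 1.68 and 1.096 passed the test (adjusted p = 1.11e-09 and 0.000325). TSC22D1, of the same list, changed by 0.82, -0.005 and -0.27 (adjusted p of the difference = 0.000277).

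The glycolytic falls also differed. HK2 changed by -0.80 in MDAMB231 and by -0.21 and -0.21 in HCT116 and COLO205 (adjusted p of the difference = 9.5e-07). ENO2 changed by -0.52, -0.10 and 0.23 (adjusted p = 4.43e-07) and LDHA by -0.34, -0.01 and -0.14 (adjusted p = 0.00742). Among cholesterol genes, HMGCS1 changed by 1.37, 0.07 and 0.80, and it differed from HCT116 (adjusted p = 0.00134) but did not pass against COLO205 (adjusted p = 0.065). INSIG1 changed by 0.59, 0.11 and 0.81, without passing against the mean of both (adjusted p = 0.267).

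Several genes moved less in MDAMB231 than in the colorectal lines. SUMO3 changed by 0.23 in MDAMB231, 1.30 in HCT116 and 1.01 in COLO205, a difference of -0.92 ± 0.06 (adjusted p = 3.37e-09). ATF7IP changed by 0.38, 1.5 and 1.09 (adjusted p = 6.62e-09), and DHRS2, a mitochondrial short-chain dehydrogenase, by 0.78, 3.42 and 2.37 (adjusted p = 1.91e-07). AQP3, a glycerol channel, changed by 0.47, 0.88 and 1.61 (adjusted p = 1.56e-06). PLIN2 changed by 0.31, -0.12 and 2.88, above HCT116 (adjusted p = 0.000373) and below COLO205 (adjusted p = 2.05e-15). MCM5 changed by -0.43, -0.24 and -0.29 and HLA-B by 0.34, 0.57 and 0.20, and neither difference passed the test (adjusted p = 0.125 and 0.732).

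**Figure D5:**
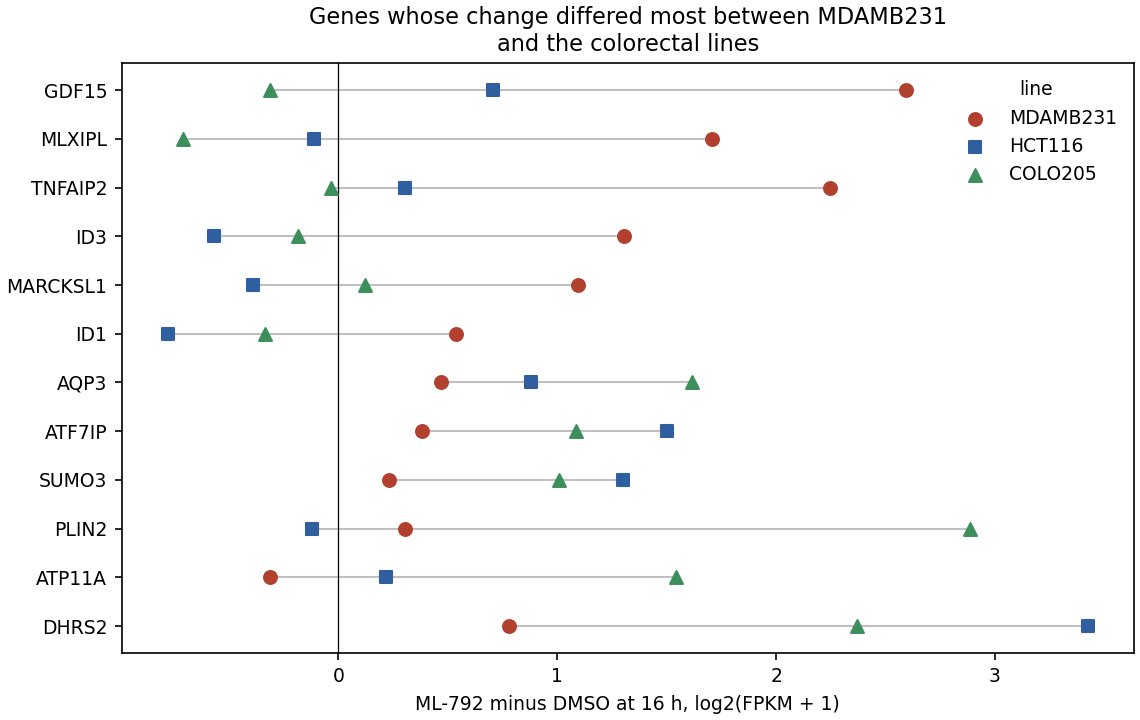
Difference between ML-792 and DMSO at 16 h (x axis, log2 of FPKM + 1) in MDAMB231 (circles), HCT116 (squares) and COLO205 (triangles) for the 6 genes with the largest differences on each side of the interaction that the naming rule picked. GDF15, MLXIPL and TNFAIP2 lie farthest to the right in MDAMB231, and SUMO3, ATF7IP and DHRS2 have positive values in all 3 lines with the smallest in MDAMB231.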

How the data were processed

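Polyadenylated RNA of MDAMB231 cells was measured in 6 libraries of 16 h, 3 with ML-792 and 3 with DMSO, and of HCT116 and COLO205 in 12 more. Per the labels' protocols, RNA came from biological triplicates, libraries were made with a stranded mRNA kit and reads were paired. The authors deposited 1 table of FPKM values by gene. The unit was read from the values, since the header holds only library codes. The submitters' processing notes name DESeq2 1.10.1, with no role stated. Which aligner, genome build or annotation was used is not given in the sources used here.

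Genes at 1 FPKM or more in 3 of the 6 libraries were tested with limma 3.58.1 in R 4.3.3 (trend and robust) on log2(FPKM + 1), a log2 scale computed here from the deposited values, with Benjamini-Hochberg adjustment over the 12145 genes and a threshold of 0.05. The fit holds the 6 MDAMB231 libraries alone. A second fit on the 18 libraries of 16 h tested whether the change differed between the lines. The script was tested on simulated data. Depth is known only relative to a reference library, from ratios of low values. No counts were used, so no counting interval is given.

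Lists are described by counts and medians beside all genes tested. Some lists share members, so their counts are not independent of each other. The comparison, the lists and the tests were chosen with earlier results of these data known. Named genes are the 12 largest rises and falls among called genes above the median mean FPKM with groups that do not overlap (leaving out LOC, clone, antisense and pseudogene names), up to 4 called members of each list by adjusted p, 6 SUMO genes, 6 genes on each side of the line comparison, and identity markers. Other list members were named after their values were seen, and some genes that the rule names are not reported here. Alternatives were the pseudocount, the filter, the scaling, the fit, the reference line and leaving out each library. Promoter sequences are those of RefSeq in GRCh38.p14, matched by symbol for 9528 tested genes.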

Additional observations from a re-analysis of the deposited data

Results flagged for a closer look

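The change with ML-792 differed between MDAMB231 and the mean of the 2 colorectal lines by at least 1 on the log2 scale, past the threshold of the interaction test in limma, for 14 named genes. The difference was higher in MDAMB231 for GDF15 (2.40), MLXIPL (2.12), TNFAIP2 (2.11), ID3 (1.68), CRISPLD2 (1.51), MARCKSL1 (1.23), NR4A2 (1.23), ID1 (1.1), HES1 (1.06), RHOB (1.04) and HIST1H2AC (1.02). It was lower for DHRS2 (-2.12), ATP11A (-1.19) and PLIN2 (-1.08).

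MLXIPL, a glucose-responsive transcription factor, held 2.15, 2.40 and 2.72 FPKM in the DMSO libraries and 10.4, 9.88 and 10.1 FPKM in the ML-792 libraries, and it changed by 1.71 in MDAMB231, -0.11 in HCT116 and -0.71 in COLO205. MARCKSL1 changed by 1.097, -0.39 and 0.12 in that order, and CRISPLD2 by 1.56, 0.08 and 0.03. NR4A2 changed by 1.34, 0.24 and -0.01, HES1 by 1.17, 0.39 and -0.16, and RHOB by 1.08, 0.29 and -0.21. HIST1H2AC changed by 0.78, 0.26 and -0.76, and its difference passed against COLO205 (adjusted p = 0.000252) but not against HCT116 (adjusted p = 0.199). ATP11A, a lipid flippase, fell in MDAMB231 by 0.31 and changed by 0.22 and 1.54 in HCT116 and COLO205.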

How the results depend on the processing

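No paired analysis was possible because library codes are the only replicate labels and no group repeats those of another. Of 158 named genes that were called, 133 kept their call under every alternative in which they were fitted (all 15 for 144 of the 158 genes, and 11 or 14 for the other 14, which a filter left out), 25 lost it under at least 1, among them 9 only when a library was left out, and 0 reversed. The count of 2156 changed genes ranged from 1157 to 3346 when each library was left out: it was 3346 without ML-792 library 1, 1257 without ML-792 library 2, and 1311, 1157 and 1280 without DMSO libraries 1, 2 and 3. With a trend of each library on GC content and length removed, an alternative chosen after seeing the data, it was 3761, and 2138 of the 2156 genes were again called. In that fit 18 of 36 G2 and mitosis genes were lower, in place of 4. The other alternatives gave 1579 to 2371. The 37 genes that changed at least 2-fold became 81 with a pseudocount of 0.1 and 16 with 5, and ranged from 30 to 40 when a library was left out. The share of calls that were higher, 49.6%, was 51.5% with no filter, 52% after scaling by the median of ratios and 42% after setting equal sums, and from 43.2% to 52.7% without a library. The number of genes called among the members of all lists, each gene counted once, was 357 and ranged from 245 to 528. The count of 1702 genes whose change differed between lines was 817 against HCT116 alone and 2529 against COLO205 alone (the difference of PLIN2 turned from -1.08 to 0.43 against HCT116 alone), and from 1094 (without MDAMB231 DMSO library 1) to 2043 when a library was left out. Scaling moved the median log2 difference of all genes between -0.02 and 0.0003. With 3 libraries a side, 3833 genes had an unadjusted p under 0.05. The causes of these shifts were not tested.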

Other observations

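Several genes at low levels, or with clone names, rose by more than 2-fold and lie outside the rule for named genes. They were picked after their values were seen. CYP1A1, LOC100288255 and TNFRSF11B reached the limit of 1 FPKM only in the ML-792 libraries, so they could pass only on the higher side. CYP1A1, a cytochrome of the aryl hydrocarbon receptor pathway, held 0.969, 0.795 and 0.685 FPKM in the DMSO libraries and 5.92, 5.003 and 4.98 FPKM in the ML-792 libraries (log2 difference 1.79 ± 0.08 (SE), adjusted p = 4.51e-06). Other genes known to respond to that receptor did not pass the test: CYP1B1 held 50.3, 48.1 and 48.5 FPKM with DMSO and 49.3, 53.7 and 54.5 FPKM with ML-792, with overlapping groups, and TIPARP averaged 12.1 and 11.5 FPKM (adjusted p = 0.323). LOC100288255, an uncharacterised gene, averaged 0.0206 FPKM with DMSO and 7.05 FPKM with ML-792, the largest log2 difference of any called gene at 2.98. BC017818, a clone name on the row before TNFAIP2 in the file, went from 9.05 to 38.6 FPKM. Whether its reads overlap those of TNFAIP2 was not tested.

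Of the other low genes, 2 encode secreted factors. PGF, a placental growth factor of the VEGF family, held 1.52, 1.72 and 1.40 FPKM with DMSO and 5.49, 5.04 and 5.15 FPKM with ML-792. TNFRSF11B, the decoy receptor osteoprotegerin, held 0.735, 0.641 and 0.613 FPKM in the DMSO libraries and 3.04, 3.41 and 3.24 FPKM in the ML-792 libraries. The groups were apart in both genes. ZSCAN31, a zinc finger gene, held 1.498, 1.35 and 1.22 FPKM with DMSO and 4.48, 4.55 and 4.85 FPKM with ML-792, and GGT5, a gamma-glutamyl transferase, fell from 8.97 to 3.72 FPKM. GGT5 was, with G0S2, PLAT and NRG1, 1 of the 4 genes that fell by at least 2-fold.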
